A study of Homo sapiens with 8 samples.

Results

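The genes described here add sulfate to sugar chains or remove it, on heparan or chondroitin sulfate except for CHST2: HS3ST3A1, HS3ST3B1, HS2ST1, HS6ST1, NDST1, CHST2, CHST11, CHST15, SULF1 and SULF2, 10 of the 27945 genes in the count table, found by gene symbol. The family was chosen by measured values of these same libraries, because HS3ST3A1 was higher after METTL3 knockdown, while CHST2 was higher in senescence and lower after knockdown. The values of those 2 genes that the choice used are therefore given as a description, with no test. The other members were also listed with earlier results of these data known, so their p-values do not come from a blind choice.

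Nascent transcription was measured by fastGRO-seq, a run-on assay in which RNA that polymerases extend in isolated nuclei is labeled, captured and sequenced, in IMR90 cells, primary human diploid fibroblasts of embryonic lung. The cells carried a retroviral fusion of the estrogen receptor with oncogenic H-RAS (ER:RAS), which 4-hydroxytamoxifen (4-OHT) switches on. There were 4 groups of 2 libraries: control cells, labeled wild type and without an shRNA, and cells given 100 nM 4-OHT, harvested on day 6, that carried a lentiviral shControl, shMETTL3 or shMETTL14, a single shRNA for each. The dose and the day are taken from the study's general methods. METTL3 and METTL14 form the core of the methyltransferase that places m6A on RNA. Only the senescent groups carried an shRNA, so effects of senescence and of shRNA infection cannot be told apart where shControl is set against control cells. Drosophila nuclei were added before the run-on as a spike-in, whose reads were not used here, so each change is relative to the other genes of a library, and in these bulk samples fewer transcribing cells and less RNA per cell cannot be told apart.

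Heparan and chondroitin sulfate are long sugar chains on proteoglycans of the cell surface and matrix, and the position of their sulfate groups sets which growth factors, chemokines and matrix proteins they bind. In heparan sulfate, NDST enzymes replace acetyl groups by sulfate, other sulfotransferases then add sulfate at further positions, and SULF1 and SULF2 remove sulfate outside the cell. CHST11 and CHST15 sulfate chondroitin chains, and CHST2 sulfates N-acetylglucosamine. Fibroblasts secrete much of the matrix that carries these chains.

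Control libraries held 18494186 and 18781376 counts, shControl libraries 20306299 and 19976761, shMETTL3 libraries 15688334 and 14897360 and shMETTL14 libraries 17230672 and 18074200. Ribosomal RNA genes, 21 entries that overlap and so count some reads repeatedly, took 86.2% to 92.5% of these totals and left 1513930 to 2048475 counts on other genes. The sulfation genes together had 1208 and 1235 counts in control, 1156 and 1215 in shControl, 2943 and 3041 in shMETTL3 and 1721 and 1786 in shMETTL14 libraries. Relative to sampling noise, the variance of raw counts between the libraries of a group was 1.71 for control, 1.71 for shControl, 7.26 for shMETTL3 and 3.36 for shMETTL14. It was taken against library totals with ribosomal RNA genes, before other scaling, so a difference in their share adds to it. That share was 88.4% and 86.2% in the shMETTL3 libraries. For senescent against control cells the paper calls its 2 experiments biologically independent. For the knockdown groups the labels do not say whether replicates came from separate cultures, so their p-values measure only the spread between libraries, which may be technical. The fit shares its estimate of that spread over all 4 groups, so each p-value also draws on libraries outside the groups compared. Genes were called at an adjusted p below 0.05, and wherever a named gene is given as called higher or lower, both libraries of a group lay on the stated side of both libraries of the other.

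As a check of the labels, the knocked-down genes come before the others. The counts are of nascent RNA, while an shRNA acts on finished RNA, so they cannot decide whether a knockdown worked. The paper examined its knockdowns by western blot. METTL3 counts were 80 and 78 in control, 77 and 47 in shControl, 16 and 19 in shMETTL3 and 73 and 56 in shMETTL14 libraries, and the log2 fold change of shMETTL3 against shControl was -2.04 (SE 0.33, adjusted p = 1.8e-05, edgeR). METTL14 counts were 60 and 55 in control, 24 and 28 in shControl, 41 and 48 in shMETTL3 and 18 and 14 in shMETTL14 libraries. Both shMETTL14 libraries were below both shControl libraries, but the log2 fold change of -0.86 (SE 0.35, adjusted p = 0.076, edgeR) did not pass the threshold. Under the alternatives that value ran from -1.03 to -0.51 and was not called in any. Against control cells METTL14 was lower in shMETTL14 libraries at -1.62 (SE 0.32, adjusted p = 0.00012, edgeR). This includes a difference of shControl from control, called at -0.76 (SE 0.29, adjusted p = 0.047, edgeR) and between -1.25 and -0.68 under the alternatives. The latter call was lost without control replicate 1 (0.21) or 2 (0.1), shControl replicate 1 (0.24) or 2 (0.14) or shMETTL14 replicate 1 (0.071) or 2 (0.062), with DESeq2 (0.22), with ribosomal RNA genes removed (0.056), without the filter on low counts (0.083) and with the replicate block (0.05).

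The cells were also checked against markers. All 9 fibroblast markers passed the filter on low counts, led by COL1A1, and their summed normalized count was 23297 and 21779 in control, 10782 and 12536 in shControl, 13161 and 10923 in shMETTL3 and 7592 and 8627 in shMETTL14 libraries. Of them 7 were called lower and 1, VIM, higher in senescence, beside 13.3% and 13.3% of all genes, and 7 were lower with shMETTL14 than with shControl, beside 12%. With shMETTL3 against shControl FAP was higher and THY1 lower, beside 12.3% and 11.2%. The lower count in senescence was 4 without shControl replicate 1, and the call of VIM was lost when any 1 control or shControl library was left out and with library size alone. By library size alone 4 were lower with shMETTL14, and with shMETTL3 5 were higher and THY1 was not called. With shMETTL3 2 were lower without shMETTL3 replicate 1 or either shMETTL14 library. The 4 epithelial markers, with KRT5 at 0 in each library, summed to 4.4 and 5.2 in control, 1.2 and 0.0 in shControl, 2.1 and 0.0 in shMETTL3 and 9.0 and 3.2 in shMETTL14 libraries, and the 3 endothelial markers, led by VWF, to 8.9 and 8.7 in control, 7.1 and 4.5 in shControl, 4.1 and 4.7 in shMETTL3 and 3.0 and 2.1 in shMETTL14 libraries. Neither list had a gene that passed the filter. Of 4 immune markers, with CD3E at 0 in each library, 1 passed, CD68, which fibroblasts also express, and the list summed to 15.1 and 16.5 in control, 74.5 and 52.3 in shControl, 47.2 and 25.6 in shMETTL3 and 51.0 and 47.4 in shMETTL14 libraries. CD68 was higher in senescence at a log2 fold change of 2.05 (SE 0.35, adjusted p = 2.6e-05, edgeR) and lower with shMETTL3 than with shControl at -0.84 (SE 0.30, adjusted p = 0.04, edgeR). The second call was lost without shControl replicate 1 (-0.58, adjusted p = 0.34), shMETTL3 replicate 2 (-0.50, 0.28) or either shMETTL14 library (0.05 each), with library size alone (-0.23, 0.56), with DESeq2 (0.18) and in an edgeR fit of the compared groups (0.065), and the value was -1.30 without shMETTL3 replicate 1. The fibroblast sum was lower in senescence and again with shMETTL14, while shControl and shMETTL3 libraries overlapped, and the part of this sum and of CD68 in the values below was not tested. Among 5 senescence and cell cycle genes CDKN1A was called higher and LMNB1 and MKI67 lower in senescence. LMNB1 and MKI67 were lower again with shMETTL3 than with shControl, and with shMETTL14 CDKN1A was higher and LMNB1, MKI67 and CCNA2 lower, a lower count of 1 without shControl replicate 2. In a fit of the compared groups 1 was lower with shMETTL3. LMNB1, the gene of lamin B1, had counts of 83 and 83 in control, 11 and 15 in shControl, 2 and 0 in shMETTL3 and 5 and 2 in shMETTL14 libraries. CDKN1A, the gene of the cell cycle inhibitor p21, had 459 and 426 in control, 726 and 744 in shControl, 762 and 642 in shMETTL3 and 1817 and 1498 in shMETTL14 libraries, and MKI67, a marker of cycling cells, 224 and 201 in control, 25 and 53 in shControl, 1 and 0 in shMETTL3 and 1 and 3 in shMETTL14 libraries. The part of these genes was not tested either.

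Promoters of 9 of the 10 genes were found in RefSeq (GRCh38.p14), each with 250 bases before and 50 after the start site. Those of HS3ST3A1 and CHST11, both highest with shMETTL3, and of CHST2, highest with shControl, are shown 5′ to 3′ on the gene's own strand. They lie at chr17:13601880-13602179 (minus strand), chr12:104456698-104456997 (plus strand) and chr3:143119521-143119820 (plus strand). Capitals mark matches on either strand to the SP1 motif GGGCGG and, in HS3ST3A1, to the cyclic AMP response element TGACGTCA.
HS3ST3A1: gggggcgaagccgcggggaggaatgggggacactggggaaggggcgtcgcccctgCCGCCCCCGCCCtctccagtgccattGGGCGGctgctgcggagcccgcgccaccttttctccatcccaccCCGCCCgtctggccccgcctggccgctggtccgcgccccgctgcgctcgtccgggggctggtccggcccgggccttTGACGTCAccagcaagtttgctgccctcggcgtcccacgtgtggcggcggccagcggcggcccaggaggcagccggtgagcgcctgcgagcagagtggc
CHST11: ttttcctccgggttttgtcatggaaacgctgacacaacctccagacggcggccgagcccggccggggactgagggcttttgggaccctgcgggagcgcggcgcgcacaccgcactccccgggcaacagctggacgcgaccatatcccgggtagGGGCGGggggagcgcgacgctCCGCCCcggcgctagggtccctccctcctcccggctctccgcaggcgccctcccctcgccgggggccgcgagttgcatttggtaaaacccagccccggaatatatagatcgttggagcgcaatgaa
CHST2: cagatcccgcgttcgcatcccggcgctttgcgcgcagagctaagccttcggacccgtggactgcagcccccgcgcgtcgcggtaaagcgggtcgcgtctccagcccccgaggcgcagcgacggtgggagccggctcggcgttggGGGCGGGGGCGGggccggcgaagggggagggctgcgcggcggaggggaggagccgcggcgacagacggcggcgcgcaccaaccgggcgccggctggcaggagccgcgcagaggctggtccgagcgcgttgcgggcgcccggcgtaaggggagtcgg
The SP1 motif occurred 4 times in HS3ST3A1, 2 times in CHST11 and 2 times in CHST2, and 44.95% of all 35116 RefSeq promoters of this length held it. The cyclic AMP response element was searched for only after the sequences had been read, and 1.85% of promoters held it. AP-1 TGACTCA, kappaB GGANTTTCC and the TATA box TATAAA, held by 4.95%, 1.64% and 11.5% of promoters, were not found in these windows. Among the other sulfation genes, NDST1 held 1 AP-1 match, and the SP1 matches were 7 in HS6ST1, 5 in HS3ST3B1, 4 in HS2ST1, 1 in NDST1, 1 in CHST15 and 0, 0, 5 and 1 in the 4 entries of SULF2. A match in letters is a description, and binding was not tested.

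In the build of the counts (hg19), HS3ST3A1 spans chr17:13397349-13505259, HS3ST3B1 chr17:14204367-14252721, CHST11 chr12:104850692-105155792 and CHST2 chr3:142838618-142842856. Reads were counted over whole gene bodies, introns included. HS3ST3B1 contains MGC12916, with 28 counts over all libraries, and CHST11 contains MIR3922, with 0, while the other members overlapped no gene of the table. The header of the count table asks HOMER for reads of 1 strand, but the counts may not separate strands: of 315 pairs in which a gene lay inside another on the opposite strand and held 100 counts or more over all libraries, the inner gene had more counts than the outer in any library in only 2, which does not settle it, since inner genes are shorter. Opposite-strand genes of the GENCODE annotation cover 2.40% of HS2ST1, 0.166% of NDST1 and 6.50% of SULF2, whose values may hold some of their reads. The paralogs HS3ST3A1 and HS3ST3B1 share 0.496% of the 50-base words of HS3ST3A1.

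**Figure D1:**
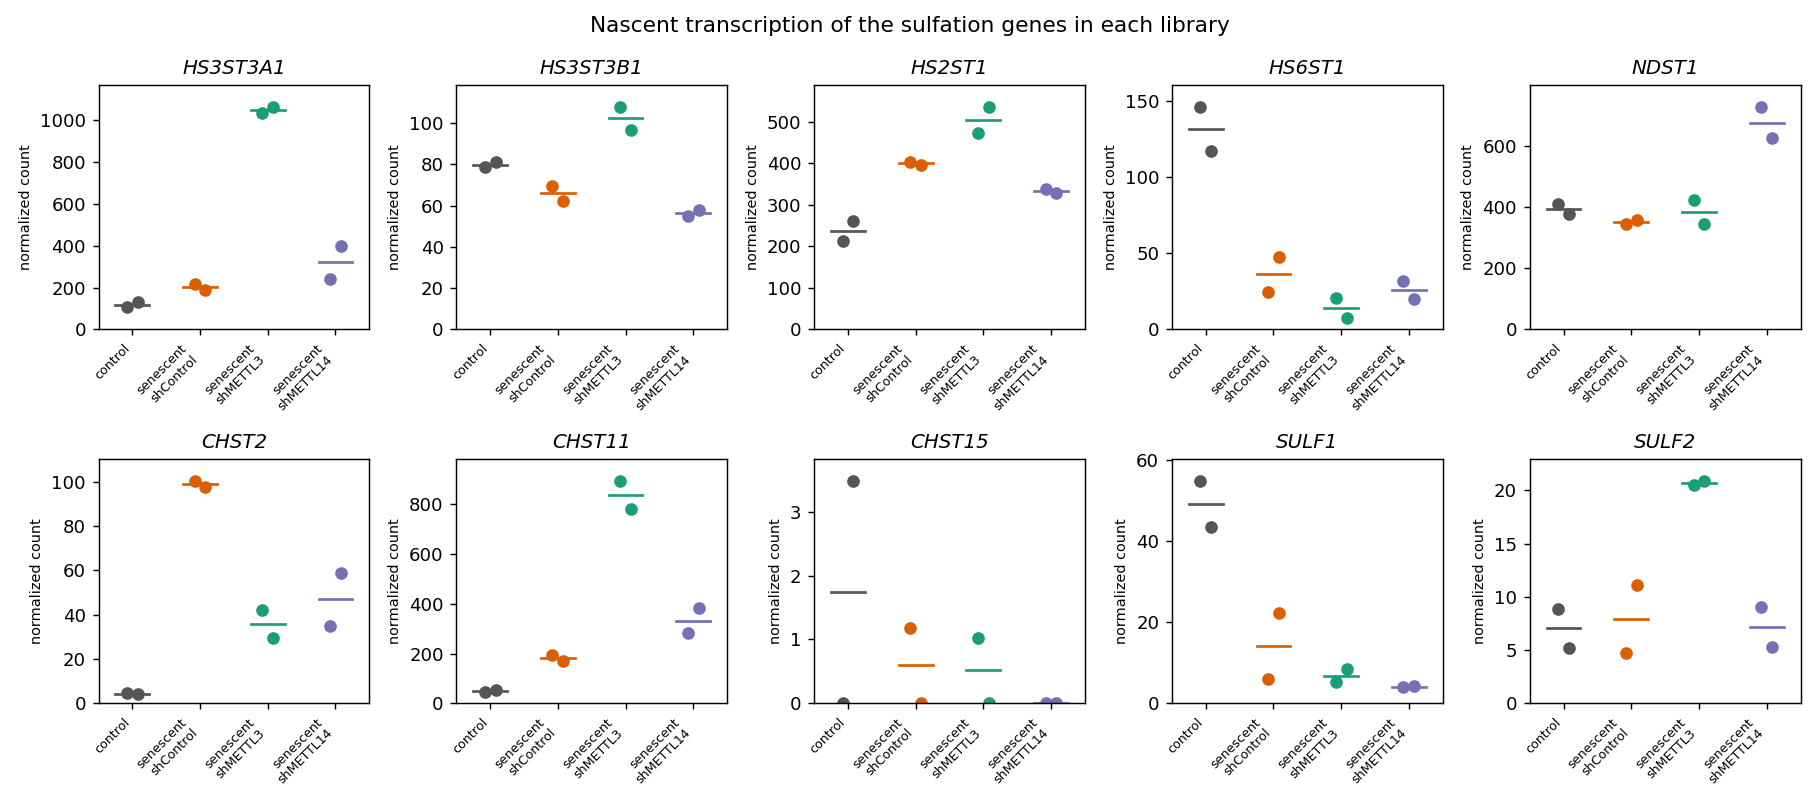
Normalized count of each sulfation gene (vertical axis, its own scale per panel) in the 2 libraries of each group, with bars at the group means. HS3ST3A1 and CHST11 are highest with shMETTL3, and CHST2 is highest with shControl.

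HS3ST3A1 adds sulfate at the 3-O position to heparan sulfate, a late and rare step of chain modification. Its counts were 123 and 148 in control, 183 and 170 in shControl, 1007 and 1117 in shMETTL3 and 240 and 380 in shMETTL14 libraries. Scaled by TMM, the group means were 119 ± 14.1 (SD, n = 2), 203 ± 19.2, 1047 ± 19.4 and 320 ± 113 normalized counts in that order, with both shMETTL3 libraries above all others. The log2 fold change was 0.77 (SE 0.19) in senescence, 2.37 (SE 0.17) for shMETTL3 against shControl and 0.66 (SE 0.18) for shMETTL14 against shControl. The last was 0.24 without shMETTL14 replicate 2, 0.96 without shMETTL14 replicate 1 and 1.00 if scaled by library size alone, and the value in senescence was 0.27 by that scaling. The contrast that the choice of genes did not use, shMETTL14 against control, gave 1.42 (SE 0.19, adjusted p = 6.4e-07, edgeR).
HS3ST3B1, its paralog on the same chromosome, had other values. Its counts were 89 and 93 for control, 59 and 56 for shControl, 105 and 102 for shMETTL3 and 55 and 55 for shMETTL14. It was called higher with shMETTL3 than with shControl at a log2 fold change of 0.63 (SE 0.20, adjusted p = 0.023, edgeR). That call was lost without shControl replicate 1 (adjusted p = 0.083, edgeR), shControl replicate 2 (0.21) or shMETTL3 replicate 1 (0.065), with DESeq2 (0.12) and in a fit of the compared groups (0.057), and the value was 1.24 (9.8e-06) with library size alone. It was lower with shMETTL14 than with shMETTL3 at -0.86 (SE 0.20, adjusted p = 0.0016, edgeR). In senescence it was not called at -0.28 (SE 0.20, adjusted p = 0.35, edgeR), and was -0.77 (adjusted p = 0.0068) with library size alone.

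CHST11, a sulfotransferase of chondroitin, was higher in each senescent group than in control cells. Its counts were 52 and 62 in control, 165 and 152 in shControl, 872 and 825 in shMETTL3 and 283 and 363 in shMETTL14 libraries, and the groups did not overlap. In senescence its log2 fold change was 1.86 (SE 0.20, adjusted p = 2.8e-08, edgeR). With shMETTL3 against shControl it was 2.20 (SE 0.16, adjusted p = 8.4e-11, edgeR), and with shMETTL14 against shControl 0.87 (SE 0.16, adjusted p = 0.00027, edgeR). These 3 calls held under each alternative that was run, with adjusted p-values of at most 0.023. It was lower with shMETTL14 than with shMETTL3 at -1.34 (SE 0.15, adjusted p = 9e-08, edgeR). Against control, its fold was 16.7 with shMETTL3 and 6.62 with shMETTL14. Among 6308 genes it ranked 39 in likeness to HS3ST3A1 over the 8 libraries, with a root mean square difference of 0.51 in centred log2 normalized count.

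CHST2 sulfates N-acetylglucosamine on glycoproteins. Its counts were 5 and 5 in control, 85 and 88 in shControl, 41 and 31 in shMETTL3 and 35 and 56 in shMETTL14 libraries. Control libraries were lowest and shControl libraries highest, with the knockdown groups between them. The log2 fold change was 4.46 (SE 0.51) in senescence, -1.48 (SE 0.27) for shMETTL3 against shControl and -1.08 (SE 0.26) for shMETTL14 against shControl. The value for shMETTL14 was -0.77 without shMETTL14 replicate 1 and -1.50 without shMETTL14 replicate 2, and that for shMETTL3 was -0.87 with library size alone. Against control the values were 2.98 (SE 0.52) with shMETTL3 and 3.38 (SE 0.52) with shMETTL14. CHST15, which adds further sulfate to chondroitin chains, had counts of 0 and 4 in control, 1 and 0 in shControl, 1 and 0 in shMETTL3 and 0 and 0 in shMETTL14 libraries, did not pass the filter on low counts and was not tested, so a change was not detectable at this depth.

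**Figure D2:**
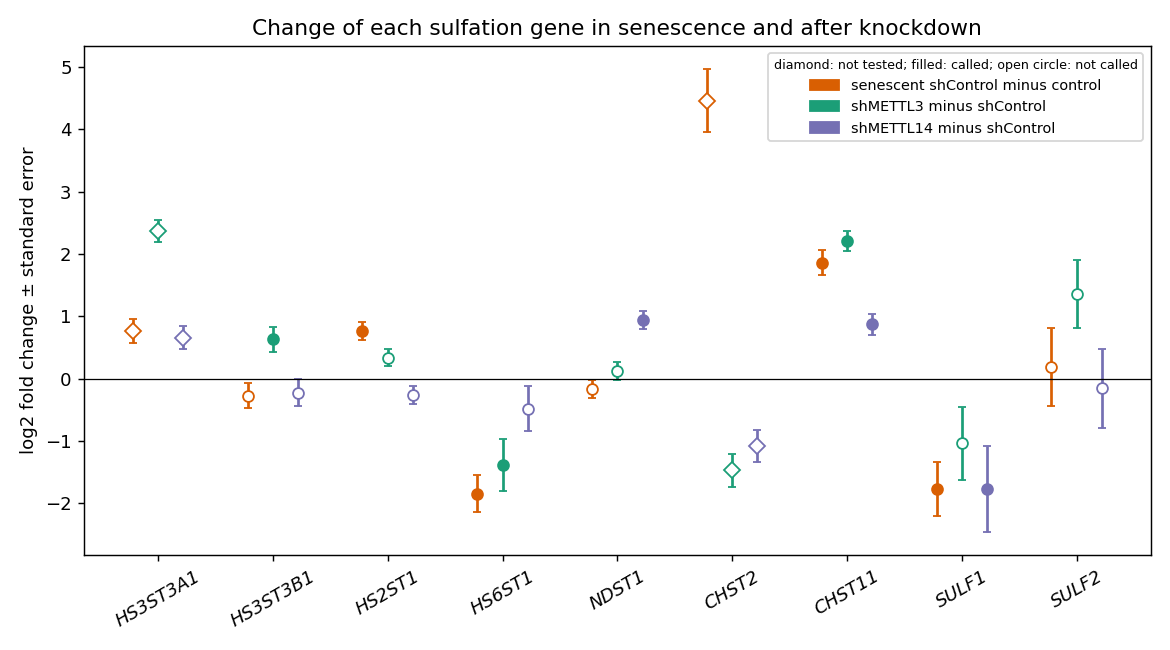
Log2 fold change with its standard error (vertical axis) for 9 sulfation genes in 3 comparisons, with diamonds for HS3ST3A1 and CHST2, which were not tested, and filled circles for calls. CHST11 is above 0 in each comparison.

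The other enzymes that add sulfate to heparan sulfate differed in direction. HS6ST1, which sulfates the 6-O position, had counts of 165 and 135 in control, 21 and 43 in shControl, 20 and 8 in shMETTL3 and 32 and 19 in shMETTL14 libraries. It was lower in senescence at a log2 fold change of -1.85 (SE 0.30, adjusted p = 1.2e-05, edgeR). With shMETTL3 against shControl it was lower at -1.39 (SE 0.42, adjusted p = 0.013, edgeR), a call lost without shControl replicate 2 (-0.85, adjusted p = 0.32), without shMETTL3 replicate 2 (-0.85, adjusted p = 0.16) and with library size alone (-0.79, adjusted p = 0.083), while it was -2.27 without shMETTL3 replicate 1. With shMETTL14 against shControl the libraries overlapped, at -0.48 (SE 0.36, adjusted p = 0.37, edgeR), and the value was 0.07 without shControl replicate 2.
HS2ST1, which sulfates uronic acids, had counts of 239 and 299 in control, 341 and 355 in shControl, 461 and 563 in shMETTL3 and 337 and 312 in shMETTL14 libraries. It was higher in senescence at 0.76 (SE 0.14, adjusted p = 0.00019, edgeR), which was 0.26 (adjusted p = 0.24) with library size alone. With shMETTL3 against shControl it was not called at 0.34 (SE 0.14, adjusted p = 0.078, edgeR). That value was 0.41 without shMETTL3 replicate 1 and 0.96 (adjusted p = 4.7e-06, edgeR) with library size alone. It was lower with shMETTL14 than with shMETTL3 at -0.60 (SE 0.14, adjusted p = 0.0013, edgeR).
NDST1, whose product starts the sulfation of heparan chains, had counts of 463 and 433 in control, 292 and 321 in shControl, 411 and 364 in shMETTL3 and 726 and 592 in shMETTL14 libraries. Its normalized count was 394 ± 23.3 (SD, n = 2), 351 ± 8.52, 384 ± 53.8 and 675 ± 72.3, and both shMETTL14 libraries stood above the rest. Against shControl this was 0.94 (SE 0.14, adjusted p = 1.7e-05, edgeR) and against shMETTL3 0.82 (SE 0.14, adjusted p = 4.9e-05, edgeR). NDST1 was not called with shMETTL3 against shControl at 0.13 (SE 0.14, adjusted p = 0.58, edgeR), was 0.73 (adjusted p = 0.00043) with library size alone and -0.039 without shMETTL3 replicate 1. In senescence NDST1 was not called at -0.16 (SE 0.14, adjusted p = 0.44, edgeR), and was -0.66 (adjusted p = 0.0016) with library size alone.

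The endosulfatases had few counts. SULF1 had counts of 62 and 50 in control, 5 and 20 in shControl, 5 and 9 in shMETTL3 and 4 and 4 in shMETTL14 libraries, highest in control. It was lower in senescence at a log2 fold change of -1.78 (SE 0.43, adjusted p = 0.0016, edgeR), with -1.13 (adjusted p = 0.092) without shControl replicate 1 and -3.02 without shControl replicate 2. With shMETTL14 against shControl it was lower at -1.77 (SE 0.69, adjusted p = 0.047, edgeR). That call was lost without shControl replicate 2 (-0.52, adjusted p = 0.77, edgeR), shMETTL14 replicate 1 (0.2) or 2 (0.14), control replicate 1 (0.065) or 2 (0.06), and with DESeq2 (0.12), library size alone (0.065), upper quartile scaling (0.052) or the replicate block (0.058). With shMETTL3 against shControl the libraries overlapped, at -1.04 (SE 0.58, adjusted p = 0.2, edgeR), with -1.68 (adjusted p = 0.046) without shControl replicate 1 and 0.20 without shControl replicate 2.
SULF2 had counts of 10 and 6 in control, 4 and 10 in shControl, 20 and 22 in shMETTL3 and 9 and 5 in shMETTL14 libraries, highest with shMETTL3. It passed the filter on low counts only through the shMETTL3 libraries, so its differences from that group are given as values and no call is read from them. The log2 fold change of shMETTL3 was 1.36 (SE 0.55) against shControl and 1.54 (SE 0.53) against control, and that of shMETTL14 against shMETTL3 was -1.51 (SE 0.55). The value against shControl was 0.88 without shControl replicate 1, 2.09 without shControl replicate 2 and 1.96 with library size alone.

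Levels of different genes were compared as normalized counts per kb of gene. In control cells NDST1 was highest at 6.51 ± 0.386 (SD, n = 2), then HS6ST1 at 2.48 ± 0.380 and HS3ST3B1 at 1.65 ± 0.0317. HS2ST1, HS3ST3A1 and CHST2 followed at 1.21 ± 0.176, 1.102 ± 0.131 and 1.04 ± 0.0123 and did not differ beyond their spread. SULF1 at 0.253 ± 0.0414, CHST11 at 0.164 ± 0.0184 and SULF2 at 0.0545 ± 0.0199 were lower. With shControl, CHST2, the shortest of these genes, was highest at 23.4 ± 0.426, above NDST1 at 5.81 ± 0.141. With shMETTL3, HS3ST3A1 at 9.70 ± 0.180 and CHST2 at 8.44 ± 2.11 did not differ beyond their spread. With shMETTL14 NDST1 was at 11.2 ± 1.20, and CHST2, at 11.1 ± 4.003, did not differ from it beyond the spread. The order was another without division by length. As normalized counts, CHST2 was lowest of these 9 genes in control at 4.39, and with shControl it stood at 99.2, below HS2ST1 at 399, NDST1 at 351, HS3ST3A1 at 203 and CHST11 at 182.

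**Figure D3:**
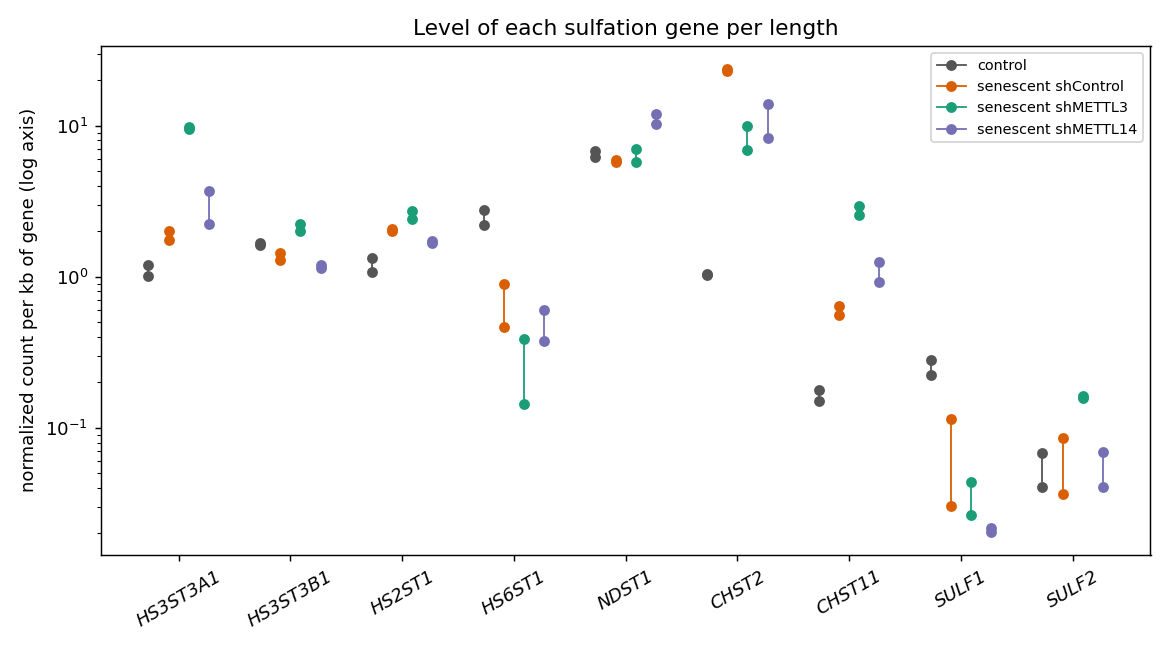
Normalized count per kb of gene (log axis) in the 2 libraries of each group, joined by a line, for the 9 genes that passed the filter on low counts. CHST2 runs from 1.04 per kb in control to 23.4 with shControl.

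Of the 10 members CHST15 did not pass the filter on low counts, HS3ST3A1 and CHST2 are described without a test, and the other 7 were tested. For shMETTL14 against control HS3ST3A1 was tested as well, which made 8. In senescence the members called were 2 higher and 2 lower, beside 13.3% and 13.3% of all genes tested. For shMETTL3 against shControl the counts were 2 higher and 1 lower, beside 12.3% and 11.2% of all genes tested. For shMETTL14 against shControl they were 2 higher and 1 lower, beside 9.15% and 12% of all genes tested, and for shMETTL14 against shMETTL3 1 higher and 4 lower, beside 16.5% and 18.7% of all genes tested. Against control, shMETTL3 gave 3 higher and 2 lower, beside 20.1% and 20.1% of all genes tested, and shMETTL14 gave 4 higher and 2 lower, beside 19.7% and 20.5% of all genes tested. The contrasts share libraries, and SULF2 is among the genes called for shMETTL14 against shMETTL3 and for shMETTL3 against control, so nothing is read from the counts. The lower count in senescence was 1 without shControl replicate 1. With shMETTL3 the lower gene, HS6ST1, was not called without shControl replicate 2 or shMETTL3 replicate 2, 2 were lower without shControl replicate 1, and 1 was higher without either shControl library, with DESeq2 or in a fit of the compared groups. With shMETTL14 the lower gene was SULF1, whose call was lost as given above. Without shMETTL3 replicate 1 2 were higher with shMETTL14 than with shMETTL3. With library size alone the median log2 fold change of all genes was -0.53 in senescence, 0.58 for shMETTL3 and 0.35 for shMETTL14 against shControl, in place of -0.03, -0.03 and 0.00 with TMM, and the values of single genes moved with it. Calls over all genes then went from 1711 higher and 1702 lower to 752 and 5015 in senescence, from 1574 and 1434 to 5287 and 353 with shMETTL3, and from 1175 and 1545 to 3163 and 709 with shMETTL14. Members called were then 1 higher and 4 lower in senescence. With shMETTL3 they were 5 higher, SULF2 among them, and 0 lower, and with shMETTL14 2 higher and 0 lower. Each of these knockdowns had 1 member lower at an unadjusted p below 0.05 (edgeR). The direction of HS3ST3A1, CHST2 and CHST11 in these 3 contrasts was the same with TMM, upper quartile scaling and library size alone.

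**Figure D4:**
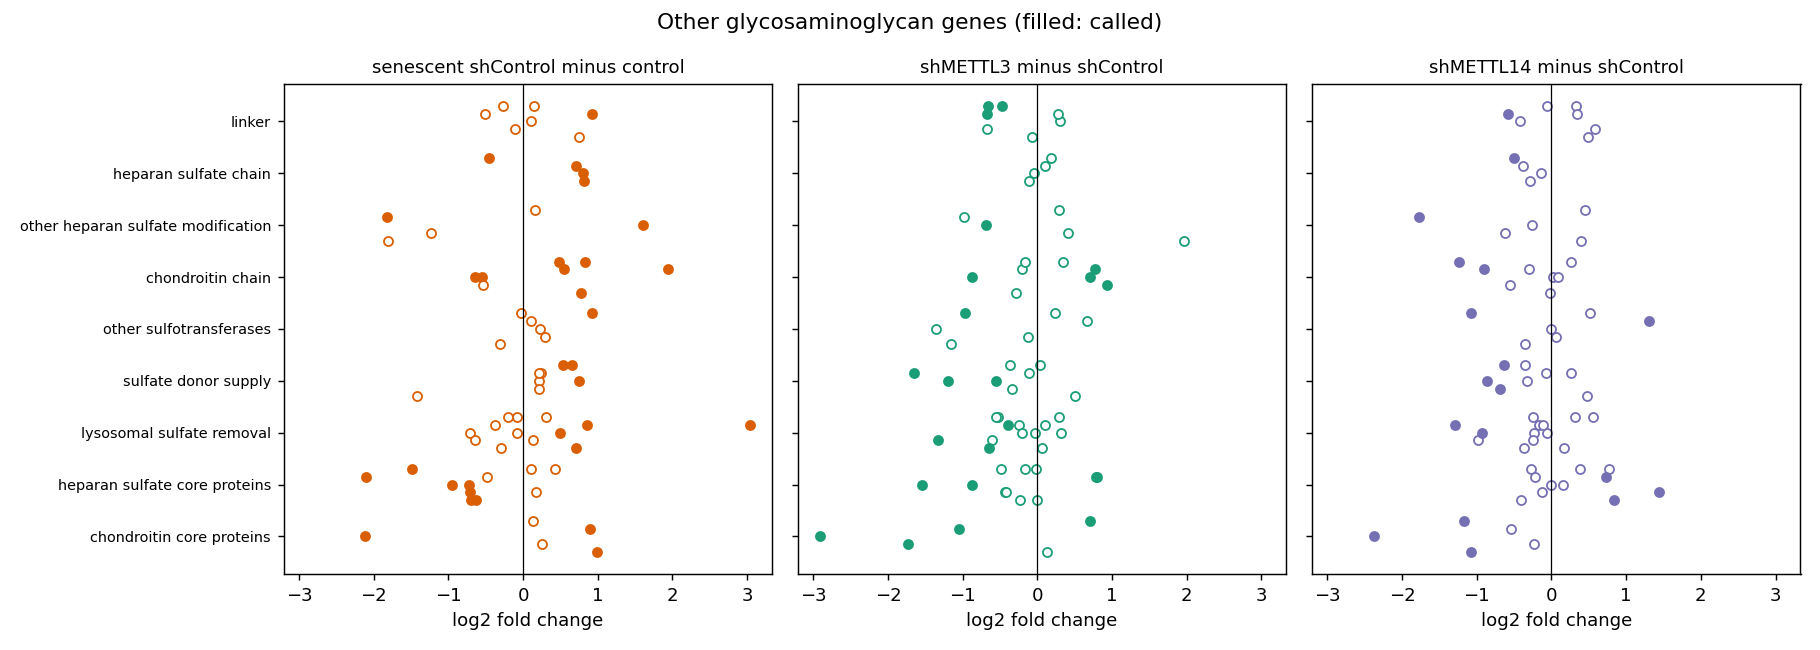
Log2 fold change (horizontal axis) of each tested gene of 9 lists of other glycosaminoglycan genes in 3 comparisons, filled where called. The median of the heparan sulfate core proteins in senescence is -0.69.

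Other genes of the pathway were counted in lists by function, 92 genes of which 67 were tested. In senescence 20 were called higher and 12 lower, beside 13.3% and 13.3% of all genes, with a median of 0.14 on the log2 scale against -0.03 over all genes. The count of higher genes was 13 without control replicate 1 and 12 without shControl replicate 1, and with library size alone 5 were higher and 24 lower. Of 8 chondroitin chain genes 5 were higher and 2 lower, led by CSGALNACT2, which starts chondroitin chains, at 1.94 (SE 0.17, adjusted p = 8.5e-10, edgeR). The calls of CHPF and DSE were lost with library size alone and without control replicate 1 or shControl replicate 1. That of CSGALNACT1 was lost with library size alone. Of the lower genes, CHSY1 lost its call without control replicate 1 or shControl replicate 2 and DSEL without control replicate 2. Of 4 heparan sulfate chain genes EXTL3, EXTL2 and EXT2 were higher and EXT1, a subunit of the chain polymerase, lower at -0.45, which was -0.95 with library size alone. The call of EXT1 was lost without control replicate 1 (adjusted p = 0.11, edgeR) or 2 (0.1) and without shControl replicate 1 (0.14) or 2 (0.1), and those of EXTL3, EXTL2 and EXT2 with library size alone (0.22, 0.29 and 0.39). Of 11 heparan sulfate core proteins 7 were lower, among them the glypican GPC6 at -2.11 (SE 0.15, adjusted p = 5.2e-11, edgeR), TGFBR3 at -1.48 and the syndecan SDC3 at -0.96. Of 5 chondroitin core proteins 2 were higher, among them the hyaluronan receptor CD44 at 0.98, and DCN, the gene of decorin, was lower at -2.11 (SE 0.17, adjusted p = 2.5e-10, edgeR). SDC3 was at -1.45 and CD44 at 0.49 with library size alone.
GLCE, the epimerase of heparan chains, was higher at 1.61 and NDST3 lower at -1.82 among 5 genes of other heparan modification. UST, a uronyl sulfotransferase, was higher at 0.93 (0.43 with library size alone) among 6 other sulfotransferases. Of 13 lysosomal genes 4 were higher, led by the sulfatase ARSG at 3.04 (SE 0.16, adjusted p = 1.7e-14, edgeR). Among them the calls of IDS and ARSB were lost with library size alone and without control replicate 1 or shControl replicate 1. Of 8 genes of sulfate donor supply 3 were higher, and of 7 linker genes 1. The donor genes were IMPAD1, SLC26A2 and PAPSS1, whose calls were lost with library size alone, as was that of the linker gene XYLT2. The calls of SLC26A2 and PAPSS1 were also lost with DESeq2 and without control replicate 2 or shControl replicate 1.

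With shMETTL3 against shControl 6 of the 67 were higher and 17 lower, beside 12.3% and 11.2% of all genes (median log2 fold change -0.21 against -0.03 over all genes). Without shControl replicate 2 these counts were 3 and 11, the lower count was 11 without shControl replicate 1 and 11 with DESeq2, and with library size alone 23 were higher and 4 lower. Chondroitin chain genes had 3 of 8 higher and 1 lower, with DSE, a dermatan sulfate epimerase, at 0.78 (SE 0.14, adjusted p = 0.00014, edgeR), the chondroitin synthase CHSY1 at 0.70 and DSEL at -0.87. Chondroitin core proteins had 1 of 5 higher and 3 lower, with DCN at -2.91 (SE 0.29, adjusted p = 4.9e-09, edgeR) and CSPG4 at -1.73. Heparan sulfate core proteins had 2 of 11 higher and 2 lower, with the basement membrane proteoglycan HSPG2 at -1.54 and SDC3 at -0.88. The higher genes were SDC2 at 0.80, a call lost without shControl replicate 2, and GPC6 at 0.78, lost without shControl replicate 1. GLCE was lower at -0.69, UST at -0.97 and SLC35B2, which carries the sulfate donor into the Golgi, at -1.19. Sulfate donor, linker and lysosomal genes had 3 of 8, 3 of 7 and 3 of 13 lower. The linker genes were XYLT1, XYLT2 and FAM20B. Their calls, and those of the lysosomal genes ARSB and ARSG, were lost with DESeq2, with library size alone and without shControl replicate 1. The call of the donor gene IMPAD1 was lost with library size alone and without shControl replicate 1. With library size alone the calls of DSEL, SDC3, GLCE, UST and SLC35B2 were lost, with log2 fold changes of -0.26, -0.27, -0.06, -0.34 and -0.58, and DSE, CHSY1, CSPG4 and HSPG2 were at 1.41, 1.32, -1.13 and -0.93.

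With shMETTL14 against shControl 4 were higher and 14 lower, beside 9.15% and 12% of all genes (median log2 fold change -0.22 against 0.00 over all genes). The lower count was 9 without shControl replicate 2, and with library size alone 14 were higher and 9 lower. Heparan sulfate core proteins had 3 of 11 higher, the syndecan SDC4 at 1.44 (SE 0.15, adjusted p = 8.2e-08, edgeR), the glypican GPC1 at 0.83 and GPC6 at 0.73. The call of GPC6 was lost without shControl replicate 1. Chondroitin core proteins had 3 of 5 lower, DCN at -2.38, the matrix proteoglycan VCAN at -1.17 and CD44 at -1.07. Chondroitin chain genes had 2 of 8 lower, CSGALNACT1 at -1.24 (SE 0.19, adjusted p = 2.6e-05, edgeR) and CSGALNACT2 at -0.90. UST was lower at -1.08 and ARSG at -1.29. Sulfate donor genes had 3 of 8 lower, among them IMPAD1, which clears a by-product of sulfation, at -0.87. The calls of the other donor genes, SLC26A2 and SLC35B3, were lost with DESeq2, with library size alone and without either shMETTL14 library. CSGALNACT2 was at -0.55 and IMPAD1 at -0.52 with library size alone. In contrasts of the knockdowns with each other and with control, the list had 16 higher and 14 lower (shMETTL14 against shMETTL3), 13 and 19 (shMETTL3 against control) and 13 and 15 (shMETTL14 against control), beside 16.5% and 18.7%, 20.1% and 20.1%, and 19.7% and 20.5% of all genes. Without shMETTL14 replicate 1 the higher counts with shMETTL14 were 9 against shMETTL3 and 8 against control.

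The 5 genes whose values over the 8 libraries were most like those of HS3ST3A1 were FANK1, LINC01619, LINC01759, MAML3 and LOC101928446, with root mean square differences of 0.12 to 0.30 in centred log2 normalized count. The nearest, FANK1, counted 25 and 28 in control, 43 and 34 in shControl, 217 and 251 in shMETTL3 and 50 and 66 in shMETTL14 libraries. Most like CHST2 were NAMPT, INHBA, CSMD2, CDCP1 and GDF15, with differences of 0.37 to 0.47. NAMPT, which makes a precursor of NAD, counted 158 and 183 in control, 1889 and 1683 in shControl, 983 and 1316 in shMETTL3 and 1060 and 1013 in shMETTL14 libraries. The likeness is a description over libraries of 4 groups.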

How the data were processed

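The deposited values are raw counts, which the authors made by aligning fastGRO-seq reads to hg19 (the submitters' processing notes name STAR and deepTools 3.3) and counting them over gene bodies with HOMER, replicates kept apart. Here the 8 libraries were scaled by TMM and filtered with filterByExpr at a minimum count of 10. A single quasi-likelihood model in edgeR 4.0.16 (R 4.3.3) with a mean per group gave all contrasts, with Benjamini-Hochberg adjustment over 12844 genes. Its biological coefficient of variation was 10.6%. Normalized counts are scaled to the mean effective library size. Alternatives were DESeq2 1.42.0, other scalings and filters, removal of ribosomal RNA genes, fits of the compared groups, a replicate block, levels without division by length, and single libraries left out. Scripts were tested on simulated data, where DESeq2 found fewer of the added changes than edgeR and missed the first bar set for it, which was then restated. Members and lists were chosen with earlier results of these data known. Genes named are METTL3, METTL14, the members, up to 4 called genes per list and direction with the largest change and a mean of at least 20 counts (the text gives mostly those still called without any single library), and the 5 genes most like HS3ST3A1 and CHST2 among those with a mean normalized count of at least 50. Single marker genes and neighbouring genes were picked after values were seen. A single gene that this rule takes in is counted in its list but not reported here by itself.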

Additional observations from a re-analysis of the deposited data

How the results depend on the processing

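Of the log2 fold changes of named genes under the alternatives, 3119 kept direction and side of the threshold or, without a test, stayed within the standard error. A call was lost by 262 and gained by 16, 14 without a test moved by more than the standard error, and 29 changed sign. Without division by length 24 ranks of members by level moved. With library size alone the counts called that moved by over 1.5 times were 1 member, 5 of the wider list and 752 of all genes higher with 4 members, 24 of the wider list and 5015 of all genes lower (senescence), 5 members, 23 of the wider list and 5287 of all genes higher with 0 members (1 at an unadjusted p below 0.05), 4 of the wider list and 353 of all genes lower (shMETTL3 against shControl), 14 of the wider list and 3163 of all genes higher with 0 members (1 at an unadjusted p below 0.05), 9 of the wider list and 709 of all genes lower (shMETTL14 against shControl), 10 of the wider list and 1177 of all genes higher (shMETTL14 against shMETTL3). With at least 10 counts in every library the counts called that moved by over 1.5 times were 0 members (0 at an unadjusted p below 0.05) lower (senescence), 0 members (0 at an unadjusted p below 0.05) lower (shMETTL3 against shControl), 0 members (0 at an unadjusted p below 0.05) lower (shMETTL14 against shControl), 0 members (0 at an unadjusted p below 0.05) lower (shMETTL3 against control), 1 member lower (shMETTL14 against control). With DESeq2 the counts called that moved by over 1.5 times were 908 of all genes lower (senescence), 1 member and 971 of all genes higher with 11 of the wider list and 727 of all genes lower (shMETTL3 against shControl), 568 of all genes higher with 0 members (1 at an unadjusted p below 0.05) and 951 of all genes lower (shMETTL14 against shControl), 9 of the wider list and 1212 of all genes higher (shMETTL14 against shMETTL3), 1586 of all genes lower (shMETTL3 against control). With only the compared groups the counts called that moved by over 1.5 times were 1 member higher (shMETTL3 against shControl), 0 members (1 at an unadjusted p below 0.05) lower (shMETTL14 against shControl). With upper quartile scaling and the replicate block 0 members, 1 at an unadjusted p below 0.05 (edgeR), were lower for shMETTL14 against shControl in place of 1. By DESeq2 the members lower were 2 (senescence), 1 (shMETTL3 against shControl), 0 (shMETTL14 against shControl) and 2 (shMETTL3 against control), and where the tool is not named counts are from edgeR. Leaving out single libraries, where a lone library is assumed to vary like the other groups, gave 12 to 21 of the wider list and 1066 to 2146 of all genes higher with 1 to 2 members and 763 to 2145 of all genes lower (senescence), 1 to 2 members, 3 to 6 of the wider list and 769 to 1932 of all genes higher with 0 to 2 members, 11 to 23 of the wider list and 723 to 2060 of all genes lower (shMETTL3 against shControl), 486 to 1645 of all genes higher with 0 to 1 members, 9 to 18 of the wider list and 784 to 1930 of all genes lower (shMETTL14 against shControl), 1 to 2 members, 9 to 20 of the wider list and 995 to 2697 of all genes higher with 1409 to 2712 of all genes lower (shMETTL14 against shMETTL3), 8 to 17 of the wider list higher with 1738 to 3082 of all genes lower (shMETTL14 against control). With library size alone the log2 fold changes that changed sign were SULF2 -0.30 and METTL3 -0.46 (senescence), XYLT1 0.16, ARSG 0.23 and IMPAD1 0.065 (shMETTL3 against shControl), HS3ST3B1 0.13, HS2ST1 0.091, SULF2 0.19 and METTL3 0.25 (shMETTL14 against shControl), NDST1 0.074 (shMETTL3 against control), SULF2 -0.11 (shMETTL14 against control). With upper quartile scaling the log2 fold changes that changed sign were METTL3 -0.013 (senescence). With ribosomal RNA genes removed the log2 fold changes that changed sign were NDST1 0.0072 (shMETTL3 against control). With single libraries left out the log2 fold changes that took both signs ran as SULF2 -0.55 to 0.66 and METTL3 -0.40 to 0.40 (senescence), NDST1 -0.039 to 0.24 and SULF1 -1.68 to 0.20 (shMETTL3 against shControl), HS6ST1 -0.89 to 0.068, SULF2 -0.63 to 0.58 and METTL3 -0.47 to 0.33 (shMETTL14 against shControl), CHST2 -0.019 to 0.71 (shMETTL14 against shMETTL3), NDST1 -0.19 to 0.094 (shMETTL3 against control), SULF2 -0.39 to 0.45 and METTL3 -0.22 to 0.083 (shMETTL14 against control). Library size alone includes ribosomal RNA genes, and a filter of at least 10 counts in every library leaves fewer genes to test, without HS6ST1, CHST2, SULF1 and SULF2, so that the lower counts of members there have another base. A fit of shMETTL14 and shControl alone tested 5 members, without SULF1, the 1 lower member. Among the members higher with shMETTL3 by library size alone is SULF2, which passed the filter only through that group and from which no call is read. Genes removed by the filter of 10 counts in every library, and those for which DESeq2 gave no adjusted p, have no value there. Of the genes that changed sign, XYLT1, ARSG and IMPAD1 were called with TMM, CHST2 was not tested and the others were not called. For the other changes the cause was not tested. Low counts limited what could be called for SULF1, SULF2 and CHST15.

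Replicate numbers were not used to pair the samples in the main fit. Correlations of same-numbered deviations ran from -0.07 to 0.26 over 6308 genes, highest for control with shMETTL3, which does not exclude pairing of some groups. With the replicate number as a block, 1731 genes were higher and 1673 lower in senescence.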

Other observations

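Genes within 500 kb of HS3ST3A1, CHST11 and CHST2 were looked at after the values had been seen. Near HS3ST3A1 3 of 5 genes were tested, and for shMETTL3 against shControl their log2 fold changes ran from -0.58 to 0.68. The highest, COX10, which serves heme synthesis, counted 72 and 86 in control, 67 and 56 in shControl, 100 and 130 in shMETTL3 and 102 and 117 in shMETTL14 libraries. Near CHST11 11 of 14 genes were tested, with log2 fold changes from -0.46 to 0.30 for shMETTL3 against shControl. In senescence 1 of them was called higher and 4 lower, beside 13.3% and 13.3% of all genes. For shMETTL14 against shControl SLC41A2 was higher at 1.20 and TXNRD1 lower at -0.80, beside 9.15% and 12% of all genes. Near CHST2 3 of 10 genes were tested, TRPC1, U2SURP and SLC9A9, with log2 fold changes of 0.23, -0.10 and -0.57 in senescence, -0.84, 0.31 and -0.07 for shMETTL3 and -0.74, 0.10 and 0.26 for shMETTL14 against shControl. These values were not recomputed under the alternatives.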
